A study of Homo sapiens with 12 samples.

Results

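The mRNAs described here encode 6 proteins of the ubiquitin and proteasome system: UBB, UBE2D2, UBE2J2, UBE2V1, USP1 and PSMD14. They were chosen by gene name, and every line of the authors' table with one of these names was taken, which gave 21 of 1477 clusters and 6 of 479 genes. A cluster is a stretch of RNA on which reads from crosslinked eIF3 piled up, and the table gives its subunit, position, annotation, reads and T-to-C conversions. The experiment was PAR-CLIP on eIF3, the multi-subunit factor that recruits the small ribosomal subunit to mRNA, in 293T, a transformed line of human embryonic kidney cells. RNA was sequenced separately for 4 of its subunits, eIF3a, eIF3b, eIF3d and eIF3g, from 3 libraries each, 12 in all. Every library came from the same cell line under the same treatment: 100 µM 4-thiouridine for 14 h, ultraviolet light at 0.15 J per square cm, a pulldown with 1 antibody against eIF3b, and RNase T1. Replicate 1 of each subunit also carried a random 5′ tag. No genotype or drug sets the groups apart, and per the labels they differ only in the subunit that the library was made for; no control pulldown was used here. The labels name the line alone, and 0 of 18 markers of other cell types and 0 of 10 genes associated with 293T cells had a cluster, so the table holds no check of cell identity.

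Ubiquitin is a small protein that is attached to other proteins by a relay of an activating enzyme (E1), a conjugating enzyme (E2) and a ligase (E3). Some chains of ubiquitin send a protein to the proteasome, while other chains and ubiquitin marks act in DNA repair and signalling. Deubiquitinating enzymes take ubiquitin off again. The part of an mRNA that lies before the coding sequence, the 5′ UTR, is where the scanning small subunit and eIF3 first meet it.

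Summed over clusters there were 15132 reads for eIF3a, 19187 for eIF3b, 24150 for eIF3d and 62405 for eIF3g. The table has 1 line per cluster and subunit and none per replicate. Each number is thus a pooled value of the authors, no SD can be given, and no test between subunits was possible. Intervals below are exact Clopper-Pearson intervals at 95% of a share of reads, and they cover counting error only. Sequencing depth per library is unknown, so reads are set against the other clusters of the same subunit. The sources used here do not say how reads that match several places of the genome were treated. The coding sequences of UBB and UBE2V1 have close relatives elsewhere, but all 21 clusters were annotated as 5′ UTR. Whether this affects any of the 6 genes, UBE2D2 included, was not tested. Sequences of the clusters are not shown, because no hg19 genome was used here.

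All 21 clusters of these mRNAs were annotated as 5′ UTR, against 67.8% of all 1477 clusters. By gene, 325 of 479 genes (67.8%) had every cluster in a 5′ UTR, the background against which 6 of 6 genes stands. None of the 21 lay in a coding exon, at a start codon, in an intron or in a 3′ UTR. UBE2D2, PSMD14 and UBE2V1 were listed for all 4 subunits, that is 3 of 6 genes against 33.6% of the 479 genes of the table. UBB and UBE2J2 were listed for 3 subunits and USP1 for 2. Thus 5 of 6 genes were in at least 3 subunits, against 57.2% of all genes. Both this count and that for all 4 subunits differ from the background by fewer than 2 genes. Counting only clusters with at least the median reads of their subunit, UBE2D2 and PSMD14 were left in 4 subunits, UBB in 2, UBE2V1 and USP1 in 1 and UBE2J2 in 0. For eIF3a all 6 genes had a cluster (68.5% of the table's genes are listed there), for eIF3b 5 (55.1%), for eIF3d 5 (74.3%) and for eIF3g 4 (73.3%). A missing gene is not a measured 0, since no cluster in the table has fewer than 8 reads.

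**Figure D1:**
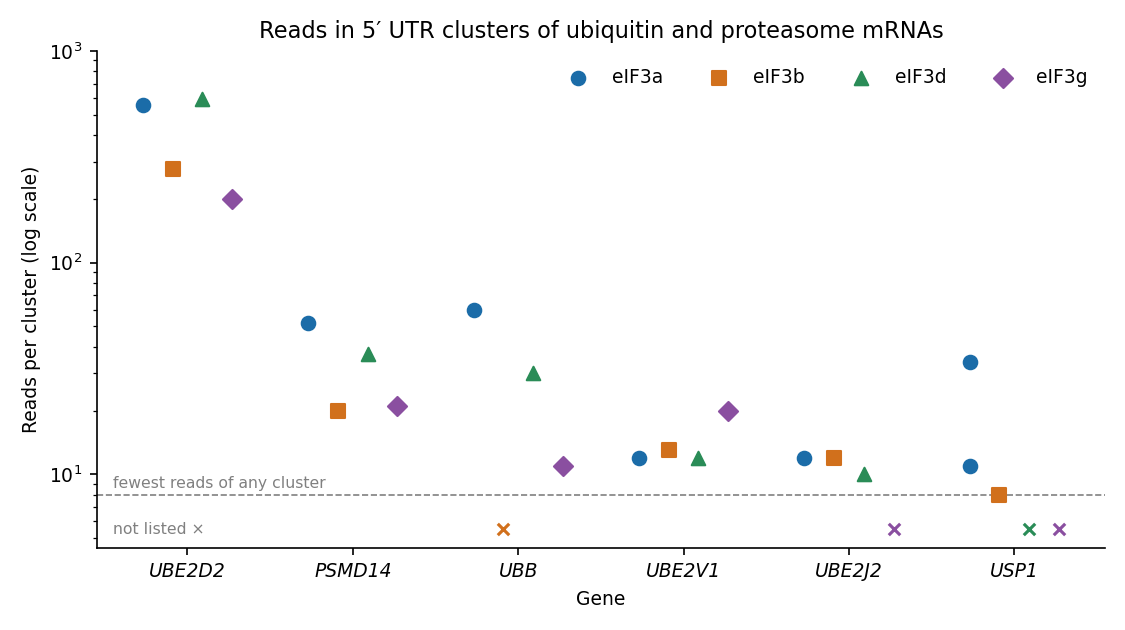
Reads per cluster on a log axis for each gene, with 1 symbol per cluster and subunit, and a cross where the gene is not listed for that subunit. The 4 UBE2D2 clusters lie between 199 and 589 reads, while the other 17 clusters lie between 8 and 60, and the dashed line marks the 8 reads of the weakest clusters in the table.

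UBE2D2 carried most of the reads. It encodes an E2 of the UBCH5 family, which works with many different ligases. Its 5′ UTR cluster had 554 reads for eIF3a, 276 for eIF3b, 589 for eIF3d and 199 for eIF3g, 1618 in all. That was 81.2% of the 1993 reads of the 6 genes, with the lowest part in eIF3a, 75.4%, and the highest in eIF3d, 86.9%. The next gene, PSMD14, summed to 130 reads over the same 4 subunits. No UBE2D2 cluster overlapped in reads with any cluster of the other 5 genes.

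Within each list the UBE2D2 cluster stood near the top. It ranked 3 of 375 clusters in eIF3a, shared ranks 14 and 15 (14.5 on average) of 298 in eIF3b with COX7C, a subunit of cytochrome c oxidase, ranked 4 of 403 in eIF3d and 25 of 401 in eIF3g. Among 5′ UTR clusters, only BTG1, an anti-proliferative gene, had more reads than UBE2D2 in eIF3a and in eIF3d. In eIF3g 24 clusters had more reads, but only 4 of these were in 5′ UTRs, those of BTG1, JUN, TPT1 and DDX39B. In eIF3b 5 of the 13 clusters above it were in 5′ UTRs, among them DDX39B, MLF2 and GLO1. Most of the clusters above it in eIF3g thus lay outside 5′ UTRs, and its place among 5′ UTR clusters was high for every subunit. Its share of the reads in 5′ UTR clusters was still the lowest in eIF3g, 1.56% against 3.29% to 5.63%. What set its rank in eIF3g was not tested.

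As a share of all reads in clusters, UBE2D2 held 3.66% in eIF3a (interval 3.37 to 3.97), 2.44% in eIF3d (2.25 to 2.64), 1.44% in eIF3b (1.27 to 1.62) and 0.319% in eIF3g (0.276 to 0.366). None of these intervals overlaps its neighbour, but they leave out the spread between libraries. The denominators differ in what they hold: taken among 5′ UTR clusters alone, the shares were 5.63% in eIF3a, 4.90% in eIF3d, 3.29% in eIF3b and 1.56% in eIF3g, in the same order, but with overlapping intervals for eIF3a (5.19 to 6.11) and eIF3d (4.52 to 5.30). With clusters of EIF3A left out, the eIF3d share was 3.27% and the eIF3b share 2.01%.

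**Figure D2:**
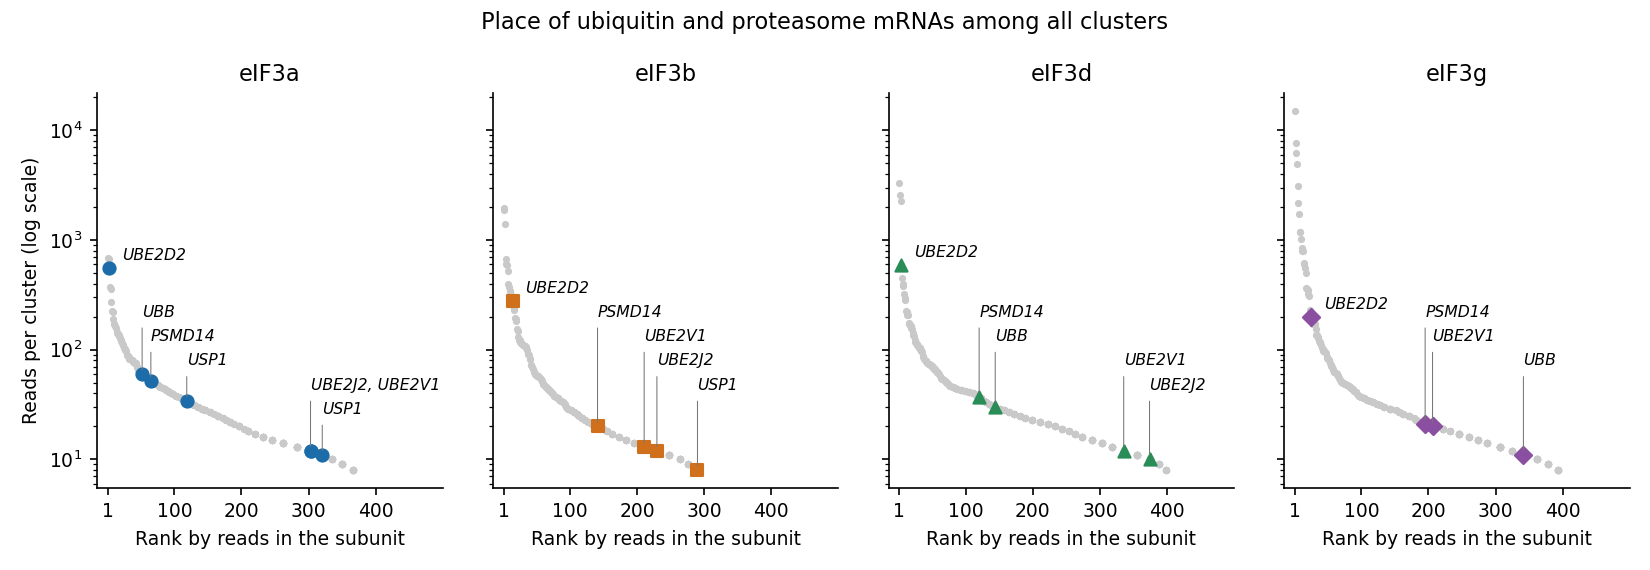
Reads per cluster (log axis) against rank by reads, 1 panel per subunit, with all clusters in grey and those of the 6 genes as coloured, named symbols. UBE2D2 lies on the steep left part in all 4 panels, at ranks 3, 14.5, 4 and 25, and the other genes lie on the shoulder or the flat right part of the curve.

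UBE2J2 encodes an E2 anchored in the membrane of the endoplasmic reticulum, where it serves the degradation of misfolded proteins. Its cluster had 12 reads in eIF3a, 12 in eIF3b and 10 in eIF3d, and it was not listed for eIF3g. All 3 values lie below the median cluster of their subunit, which had 22, 19 and 23 reads. The ranks were 303 of 375, 229.5 of 298 and 374 of 403, so 2 E2 mRNAs of the same table lay at opposite ends of the eIF3d list.

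UBE2V1 encodes an E2 variant that lacks the catalytic cysteine and pairs with UBE2N to build ubiquitin chains linked through lysine 63 of ubiquitin. Its cluster had 12 reads for eIF3a, 13 for eIF3b, 12 for eIF3d and 20 for eIF3g. The eIF3g value was the highest in reads, but as a share of cluster reads it was the lowest, 0.0320% (interval 0.0196 to 0.0495) against 0.0793% in eIF3a (0.0410 to 0.138). These 2 intervals overlap. Among 5′ UTR clusters alone the eIF3g share was the highest, 0.157% (0.0958 to 0.242), against 0.155% for eIF3b, 0.122% for eIF3a and 0.0998% for eIF3d (0.0516 to 0.174), so the place of eIF3g turned with the denominator. Percentiles by reads, taken from the mean rank with ties and running from the weakest to the strongest cluster of a subunit, were 19.3 for eIF3a, 29.5 for eIF3b, 16.9 for eIF3d and 48.8 for eIF3g.

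UBB is one of the genes for ubiquitin itself and encodes a chain of ubiquitin repeats joined head to tail. Its cluster had 60 reads in eIF3a, 30 in eIF3d and 11 in eIF3g, and it was not listed for eIF3b. The percentile by reads was 86.3 in eIF3a, 64.4 in eIF3d and 15.0 in eIF3g. The shares of cluster reads were 0.397% for eIF3a (interval 0.303 to 0.510), 0.124% for eIF3d (0.0838 to 0.177) and 0.0176% for eIF3g (0.0088 to 0.0315), with no overlap between neighbours. Its 60 reads in eIF3a were the most of any cluster outside UBE2D2.

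PSMD14 encodes the deubiquitinating subunit of the proteasome lid, which cuts ubiquitin chains from a substrate before it is degraded. Its cluster had 52 reads for eIF3a, 20 for eIF3b, 37 for eIF3d and 21 for eIF3g. The eIF3a value lay at percentile 82.8 and the eIF3d value at 70.3, while those of eIF3b, 52.9, and eIF3g, 51.5, lay at the middle of their lists. Its shares of cluster reads were 0.344% for eIF3a (interval 0.257 to 0.450), 0.153% for eIF3d (0.108 to 0.211), 0.104% for eIF3b (0.0637 to 0.161) and 0.0337% for eIF3g (0.0208 to 0.0514). The eIF3d and eIF3b intervals overlap, and the other neighbours do not with this denominator. Among 5′ UTR clusters alone each neighbouring pair of intervals overlaps, with 0.529% for eIF3a (0.395 to 0.693), 0.308% for eIF3d (0.217 to 0.424), 0.238% for eIF3b (0.146 to 0.368) and 0.165% for eIF3g (0.102 to 0.251).

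USP1 encodes a deubiquitinating enzyme that takes ubiquitin off FANCD2 and PCNA in DNA repair. It had 2 clusters in eIF3a, with 11 and 34 reads, and 1 in eIF3b, with 8 reads, and it was not listed for eIF3d or eIF3g. Only 50 of 479 genes (10.4%) had 2 or more clusters in a subunit, and USP1 was the only one of the 6. The pair lies on the plus strand of chromosome 1, at 62902509 to 62902533 and at 62903004 to 62903023 (hg19), 471 nt apart. The eIF3b cluster has the same edges as the second of these, and its 8 reads are the lowest count that the table holds.

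Of the 21 clusters, 12 had at least the median reads of their subunit, against 51.3% of all clusters. These were the 4 of UBE2D2, the 4 of PSMD14, 2 of UBB and 1 each of UBE2V1 and USP1. Without UBE2D2, the other 5 genes summed to 181 reads for eIF3a, 53 for eIF3b, 89 for eIF3d and 52 for eIF3g. As shares of cluster reads these sums were 1.20% (interval 1.03 to 1.38), 0.276% (0.207 to 0.361), 0.369% (0.296 to 0.453) and 0.0833% (0.0622 to 0.109). The share was highest in eIF3a with or without UBE2D2, and the eIF3b and eIF3d intervals overlap once UBE2D2 is left out. Among 5′ UTR clusters alone the eIF3b share of these 5 genes, 0.631% (0.473 to 0.825), also overlapped that of eIF3g, 0.408% (0.305 to 0.534).

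The edges of the UBE2V1, UBB and UBE2J2 clusters were nearly the same from subunit to subunit. Ends differed by 12 nt for PSMD14 and by 7 nt for UBE2D2. Positions are hg19 as the authors' table prints them, and the sources used here do not say if they count from 0 or 1. The UBE2V1 cluster (chromosome 20, 48732336 to 48732359, minus strand) had identical edges in all 4 subunits. The UBB cluster (chromosome 17, 16284451 to 16284473, plus strand) and the UBE2J2 cluster (chromosome 1, 1209098 to 1209122, minus strand) differed by 1 nt at one edge. PSMD14 (chromosome 2, plus strand) began at 162165080 in every subunit and ended at 162165114 in eIF3a, 162165107 in eIF3d and eIF3g, and 162165102 in eIF3b.

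UBE2D2 had the broadest site of the 6. On chromosome 5, plus strand, it ran from 138941234 to 138941273 in eIF3a and in eIF3g, began 4 nt earlier in eIF3b, at 138941230, and ended at 138941276 in eIF3b and 138941280 in eIF3d. From start to end its clusters measured 39, 46, 46 and 39 nt for eIF3a, eIF3b, eIF3d and eIF3g, where the median 5′ UTR cluster measured 24, 25, 24 and 24 nt. The median reads of 5′ UTR clusters were 21.5, 18.5, 22 and 19, far fewer than those of UBE2D2. Widths of clusters with like reads were not compared. The stretch common to all 4 was 39 nt, or 78% of the joint span of 50 nt. No cluster of another gene overlapped any of the 6 genes' clusters.

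**Figure D3:**
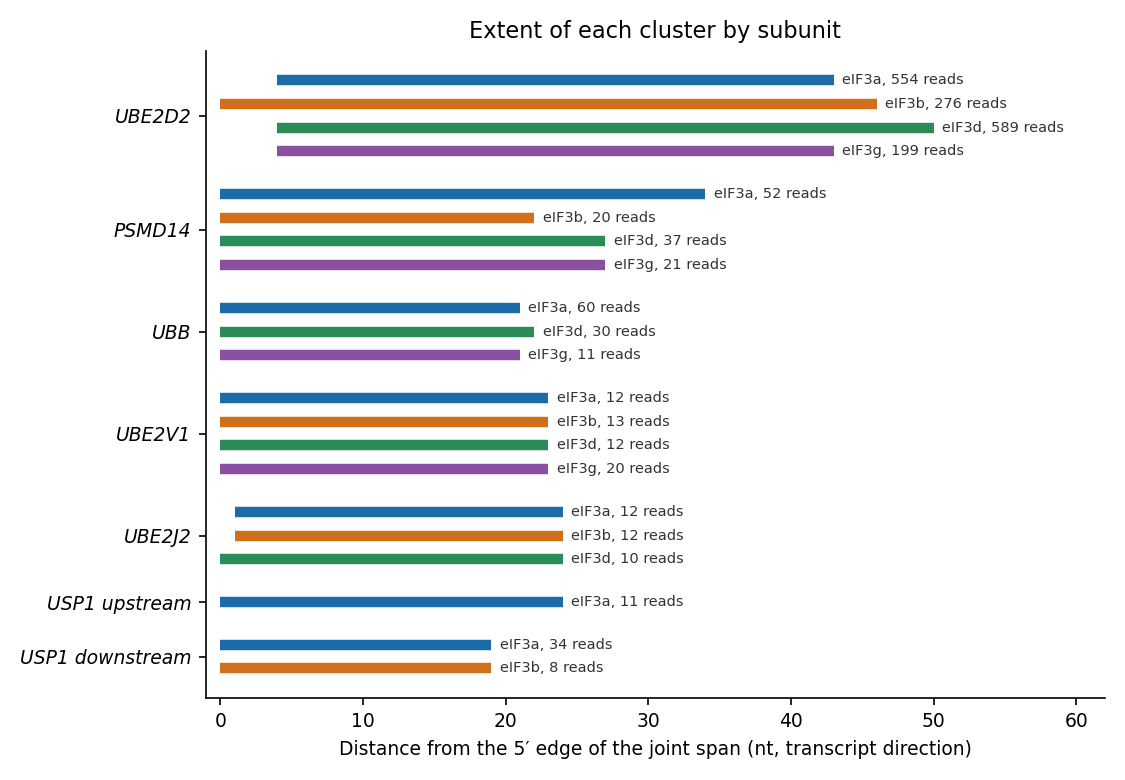
Extent of each cluster in nt from the 5′ edge of the span joined over subunits, read in the direction of the transcript, with 1 bar per subunit and its reads beside it. The UBE2D2 bars measure 39 to 46 nt and differ at both edges, the PSMD14 bars share their 5′ edge, and the 4 UBE2V1 bars coincide; the clusters of USP1 in eIF3a are shown as upstream and downstream.

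A T-to-C conversion marks a 4-thiouridine that was crosslinked to protein and read as C. In eIF3a the 7 clusters carried between 1.00 and 1.55 conversions per read, where the median over all eIF3a clusters was 1.02. In eIF3b the 5 clusters carried between 0.85 and 1.16 (median over all clusters 1.05), and in eIF3g the 4 carried between 0.818 and 1.75 (median 1.02). Conversions exceeded reads in 195 of 375 eIF3a clusters, and the highest ratio in eIF3a, eIF3b and eIF3g was 2; the table does not say how conversions were counted. UBE2D2 had 622 conversions in 554 reads in eIF3a, 321 in 276 in eIF3b and 212 in 199 in eIF3g, or 1.12, 1.16 and 1.07 per read. USP1 had the highest ratio in eIF3a, 17 conversions in 11 reads in its upstream cluster, and UBE2V1 the highest in eIF3g, 35 in 20 reads, at percentile 93.3 of the eIF3g clusters.

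In eIF3g the 42 clusters with at least 100 reads, which run up to 14879 reads, had a median of 0.121 conversions per read, and 32 of them lay below UBE2D2 with its 199 reads. Only 13 of the 42 lie in 5′ UTRs, and among these UBE2D2 was itself the median, with 6 clusters below and 6 above.

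In eIF3d the 5 ratios lay below those of the same genes in the other subunits, and the median of the eIF3d list was lower too. UBE2D2 had 11 conversions in 589 reads, PSMD14 4 in 37, UBB 7 in 30, UBE2V1 7 in 12 and UBE2J2 4 in 10, that is 0.0187, 0.108, 0.233, 0.583 and 0.40 per read. The conversions of the 5 genes ran from 4 to 11 while their reads ran from 10 to 589, so the lowest ratio belonged to the gene with the most reads. UBE2V1 lay at percentile 97.9 of the eIF3d ratios, UBE2J2 at 88.7 and UBB at 62.8, above the eIF3d median, while PSMD14 at 26.8 and UBE2D2 at 2.36 lay below it. The whole eIF3d list held few conversions: its largest entry was 39 conversions, against 622 for eIF3a, 1049 for eIF3b and 1885 for eIF3g. Its median ratio was 0.182. The sources used here do not say what the eIF3d entries count. Its ratios may thus not be comparable with those of the other subunits, or between eIF3d clusters of unlike reads. Whether they reflect differences in crosslinking was not tested. Among the 32 eIF3d clusters with at least 100 reads the median was 0.0377 and 7 lay below UBE2D2, and among the 15 of these in 5′ UTRs 1 lay below it. These sets run up to 3315 reads, and the 11 conversions of UBE2D2 lie beside a median of 9 over the 32 clusters. Reads are the denominator of the ratio, and 3 eIF3d clusters had more reads than UBE2D2. What set its low ratio was not tested.

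**Figure D4:**
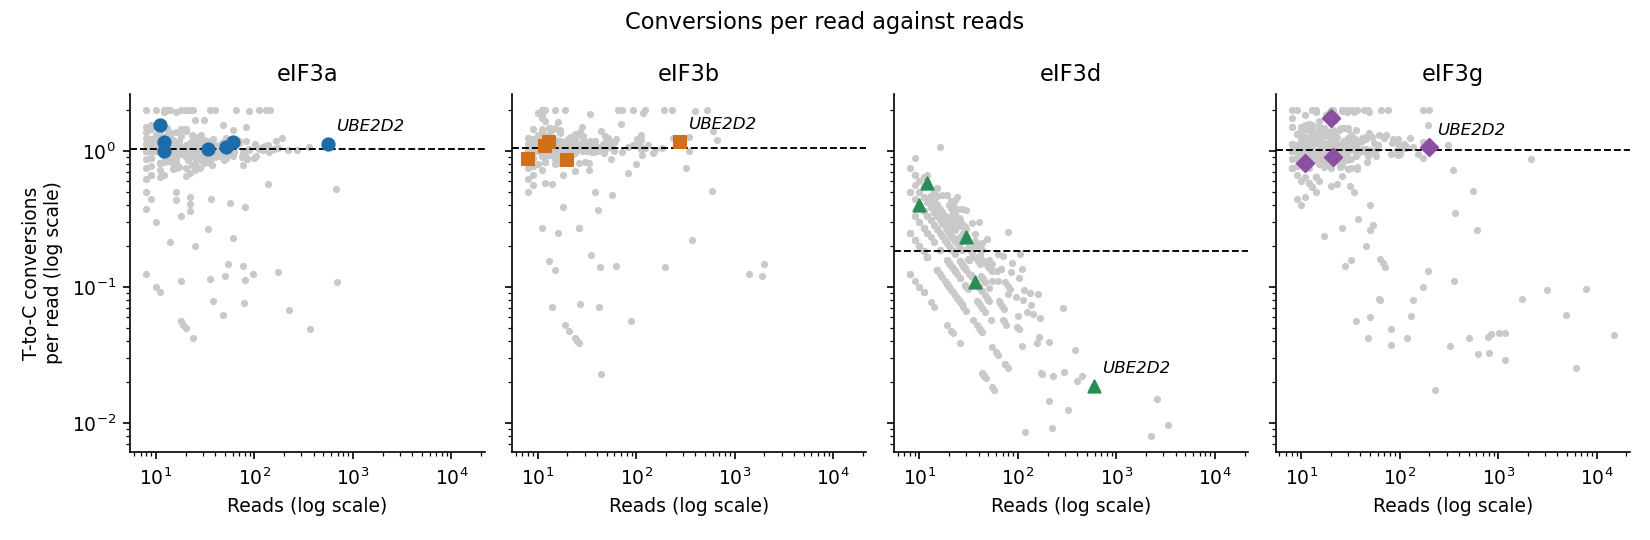
T-to-C conversions per read against reads, both on log axes, 1 panel per subunit, with all clusters in grey, the 6 genes in colour and a dashed line at the median of the subunit. The coloured symbols lie near the dashed line at about 1 conversion per read for eIF3a, eIF3b and eIF3g, and along a falling band in eIF3d, with UBE2D2 at 0.0187.

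For the genes listed in all 4 subunits, the 3 genes with the most similar percentiles by reads over the 4 subunits were taken from the 160 others of that kind. For UBE2D2 these were MORF4L2, DDX39B and PTGES3, with a largest percentile difference in any subunit of 3.24, 3.52 and 3.72. Close percentiles at the top of a list can hold unlike reads. MORF4L2 had 157, 183, 225 and 117 reads for eIF3a, eIF3b, eIF3d and eIF3g, against 554, 276, 589 and 199 for UBE2D2. DDX39B, an RNA helicase of splicing and mRNA export, had 361, 665, 451 and 306 reads for eIF3a, eIF3b, eIF3d and eIF3g. PTGES3, a co-chaperone of HSP90, had 192, 239, 159 and 193. All 3 have their strongest cluster in the 5′ UTR, and their conversions per read in eIF3d were 0.0222 in MORF4L2, 0.0222 in DDX39B and 0.0881 in PTGES3.

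The nearest to PSMD14 were the linker histone gene HIST1H1E, the chromatin remodeller SMARCA5 and PAF1, a subunit of a complex that travels with RNA polymerase II, with largest differences of 5.86, 7.55 and 8.10. The strongest cluster of HIST1H1E was annotated as start codon in every subunit, while those of SMARCA5 and PAF1 were in 5′ UTRs. HIST1H1E had 44, 21, 40 and 25 reads for eIF3a, eIF3b, eIF3d and eIF3g. SMARCA5 had 46, 24, 30 and 22 in the same order, close to the 52, 20, 37 and 21 of PSMD14. For UBE2V1 the nearest were DCBLD2, UBL5 and ARGLU1, but with differences of 15.7, 17.8 and 18.9, so no gene of the table matched it closely. These percentiles are over 4 pooled lists, and clusters of few reads are separated by 1 or 2 reads.

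Most genes of the wider pathway had no cluster, as is true of protein-coding genes in general. Of 276 genes in 6 lists of the ubiquitin and proteasome system, 10 (3.62%) had a cluster, where 2.21% of the 20056 protein-coding genes of RefSeq had one. The 10 include the 6 genes described here, and the lists were chosen with earlier results of these data known. These 2 percentages are thus no measure of enrichment. The E2 list gave 3 of 35 genes, the list of ubiquitin genes and E1 enzymes 1 of 12, the deubiquitinating enzymes 1 of 80 and the proteasome with its activators and assembly factors 1 of 51. PSMD14 was thus the sole proteasome gene in the table, and none of the E1 enzymes was there. PSMD14 also takes ubiquitin off proteins but was counted on the proteasome list only, so USP1 is not the sole deubiquitinating enzyme with a cluster. The ligase list gave 2 of 70 and the ubiquitin-like modifiers, p97 and shuttle factors 2 of 28. These counts describe the deposited table and do not account for which genes 293T cells express.

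The 4 pathway genes outside the 6 were FBXO7, UBE3A, FAU and DDI2. FBXO7, a substrate receptor of SCF ligases, had 17 reads in eIF3a and 37 in eIF3b, both in its 5′ UTR. UBE3A, the ligase whose loss in neurons causes Angelman syndrome, had 9 reads in eIF3a and 13 in eIF3d, also in its 5′ UTR. FAU, which encodes a ubiquitin-like protein fused to a ribosomal protein, had 14, 10, 18 and 20 reads in the 5′ UTR for eIF3a, eIF3b, eIF3d and eIF3g. All of these lie in the range of the 5 weaker genes, from 8 to 60 reads.

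DDI2, a protease that acts beside the proteasome, differed from the 6 genes in place. Its clusters were in a coding exon, as a pair on chromosome 1, plus strand, from 15944230 to 15944256 and from 15944262 to 15944288. The first had 29 reads in eIF3a, 43 in eIF3d and 20 in eIF3g, and the second had 22, 45 and 45 in the same subunits and 20 in eIF3b. In eIF3g the first ended at 15944254. UBL5, a ubiquitin-like protein that works in splicing, stands on none of the lists. It was named because it was among the genes nearest to UBE2V1 by percentile, though its largest difference in any subunit was 17.8. The UBL5 cluster lay in the 3′ UTR with 8, 10, 9 and 20 reads for eIF3a, eIF3b, eIF3d and eIF3g.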

How the data were processed

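Per the file headers, the deposited table gives for each cluster and subunit a count of reads and a count of T-to-C conversions, as whole numbers without normalization. Per the submitters' processing notes, cutadapt, Bowtie, bedtools and the build hg19 were used. The sources used here do not name the cluster caller, its thresholds or the way replicates were combined.

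Lines were taken by gene name and subunit with Python 3.11.15, pandas 2.3.3 and scipy 1.17.1. Clusters were ranked by reads within a subunit with ties at their mean rank, and percentiles come from these ranks. Shares of reads carry exact Clopper-Pearson intervals at 95%. Percentiles and intervals were tested on simulated data without tied reads, so the handling of ties was not tested. List symbols were matched to RefSeq's GRCh38 gene table, also through older symbols, and its coordinates were not used. All 6 genes and 451 of 479 genes of the table matched.

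The genes, the lists and the rule for named genes (the 6, every list gene with a cluster, the 3 likest genes, and genes ranked above) were chosen with earlier results of these data known. Per-library counts are not in the table as analysed here, so no replicate test was run. Nothing in the labels says whether replicates were separate cultures.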

Additional observations from a re-analysis of the deposited data

How the results depend on the processing

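No paired analysis was possible because the table has 1 pooled value per subunit and no column for the replicate, and leaving out a replicate was not run for the same reason. With noncoding clusters left out, the UBE2D2 share was 3.99% in eIF3a, 2.76% in eIF3d and 0.856% in eIF3g, and that of all 6 genes 5.29%, 3.17% and 1.08%. With EIF3A left out, UBE2D2 held 2.01% in eIF3b and 3.27% in eIF3d, and the 6 genes 2.40% and 3.76%. Among 5′ UTR clusters alone, UBE2D2 held 5.63%, 3.29%, 4.90% and 1.56% in eIF3a, eIF3b, eIF3d and eIF3g, and the 6 genes 7.47%, 3.92%, 5.64% and 1.97%. Under these denominators eIF3a kept the highest and eIF3g the lowest share for UBE2D2 and for the sum; among 5′ UTR clusters UBE2V1 instead had its highest share in eIF3g, 0.157%. Ranking genes by summed reads, USP1 stood at percentile 75 in eIF3a, against 68.5 for its stronger cluster. Without UBE2D2, a choice made after seeing the data, the sum fell to 1.20%, 0.276%, 0.369% and 0.0833%. The UBE2D2 percentile in eIF3g was 98.4 among 5′ UTR clusters, against 93.9 among all. The background of conversions per read over clusters with at least 100 reads, also chosen afterwards, was 0.0377 in eIF3d and 0.121 in eIF3g. Counting a subunit only where the cluster reached its median reads, UBE2V1 and USP1 were left in 1 subunit each and UBE2J2 in 0. The list of modifiers, p97 and shuttle factors had 1 gene with a 5′ UTR cluster.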
